A study of Ginkgo biloba with 16 samples.

Results

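The entries described here are 39 miRNAs of *Ginkgo biloba* vascular cambium that had been predicted from the small RNA reads, are listed under names of the form novel_12, and whose mean level in the oldest trees lay close to that in the young trees. They were chosen on these values. An entry had to have at least 60 reads in total over the 6 small RNA libraries, and its mean in VC600, in reads per 1000000 counted reads (CPM), had to be 0.67 to 1.5 times its mean in VC20. The table holds 632 miRNA entries, of which 356 are predicted ones and 227 of these reached 60 reads. Of the 227, 39 (17.2%) lay in the band, 133 lay below it and 55 above it. Among 101 known entries of at least 60 reads, 28 (27.7%) lay in the same band.

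All were healthy female ginkgos, the sequenced trees growing at Pizhou by the methods, and cambium was taken from frozen tangential stem sections, with 1 library per tree. Sampling took place in late May of different years, and the labels do not give the year for each tree. VC20 comprised young trees, VC200 older trees and VC600 the oldest trees. Small RNA was sequenced from trees of 15 and 20 y in VC20, 193 and 211 y in VC200, and 538 and 553 y in VC600, called trees A and B of each group. RNA-seq covered the same trees and a tree C in each group, of 22, 236 and 667 y. The labels name no treatment, and age cannot be told apart from other differences between individual trees. In this bulk tissue, fewer cells of a type and less RNA per cell cannot be told apart either.

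Plant miRNAs are short RNAs cut by a Dicer-like enzyme from the hairpin of a longer transcript. They are loaded into an Argonaute protein and guide it to transcripts of nearly complementary sequence, which are cut or kept from translation. Old miRNA families occur across land plants and mostly target transcription factors, while miRNAs predicted in a single species are often young and weakly expressed. A predicted entry rests on read stacks and a hairpin fold, and its target genes are predicted from sequence alone.

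Totals per small RNA library ranged from 1184091 to 1842055 reads. All 356 predicted entries took 70.1 and 71.5% of reads in VC20. In VC200 this share was 67.7 and 67.3%, and it was 39.6 and 33.7% in VC600. The single entry novel_1, which is not among the 39, held 24.1 to 30.2% of reads in the VC20 and VC200 libraries, and 6.88 and 6.55% in VC600. A CPM in VC600 is therefore set against a total of different makeup. RNA-seq values are FPKM, fragments per kilobase of gene and 1000000 fragments. Known marker genes of the tissue were found in the RNA-seq libraries. The 2 WOX4 genes, regulators of cambial division, summed to 8.97 to 41.7 FPKM in 8 libraries and to 0.45 FPKM in tree C of VC200. That library was also the lowest of the 9 for each of 10 marker genes, including 3 cellulose synthase genes of secondary walls (0.111 FPKM in sum, against 2.97 to 74.9 FPKM in the other 8). No small RNA library was made from this tree, so that the miRNA values do not rest on it.

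The 39 steady entries together took a small share of small RNA reads, and its likeness between VC20 and VC600 follows from the selection. They took 7.11 and 7.77% of reads in VC20. This share was 6.01 and 5.93% in VC200, and 8.78 and 7.30% in VC600. With nearly identical known entries counted once in the totals, the shares were 8.32 and 9.03% in VC20 and 7.05 and 7.02% in VC200. In VC600 they were then 12.4 and 10.7%, above those of all other libraries. Their levels were spread over more than 3 orders of magnitude. Mean CPM over the 6 libraries ranged from 7.40 for novel_354 to 27853 for novel_12, with a median of 95.6. At least 1000 CPM was reached by 9 entries, 10 lay between 100 and 1000 CPM, and 20 lay under 100 CPM. The 10 most abundant entries, novel_12, novel_477, novel_22, novel_27, novel_39, novel_41, novel_6, novel_40, novel_64 and novel_278, contributed 94.6% of the reads of all 39.

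**Figure D1:**
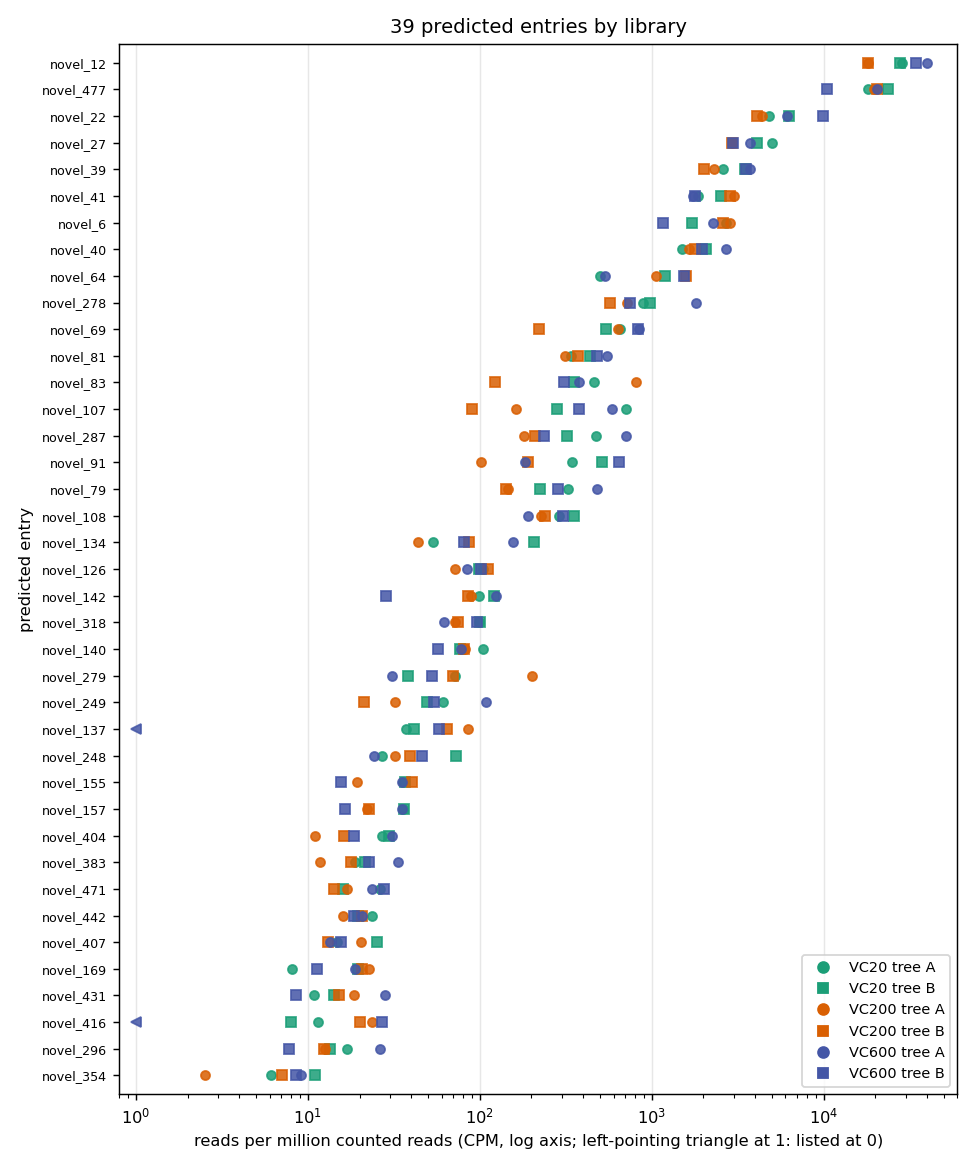
Level of each of the 39 entries in the 6 small RNA libraries, in reads per 1000000 counted reads on a log axis. Colours mark the age group and symbols the tree. Entries run from novel_354 at the bottom (mean 7.40 CPM) to novel_12 at the top (mean 27853 CPM). Left-pointing triangles at 1 mark novel_137 and novel_416, which are listed at 0 in tree A of VC600.

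The most abundant entry, novel_12, had 28655 and 27694 CPM in VC20, 18103 and 18029 CPM in VC200, and 39995 and 34644 CPM in VC600. Both VC200 trees were lower than any other tree, and the young and oldest trees did not overlap although their means lay within the band (ratio 1.32). The second, novel_477, had 18072 and 23531 CPM in VC20, 19596 and 20425 CPM in VC200, and 20297 and 10517 CPM in VC600. Its range was widest in the oldest trees, where the lowest of the 6 values was found. Together these 2 entries held 65.3% of the reads of the 39.

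The third, novel_22, had 4811 and 6329 CPM in VC20, 4383 and 4074 CPM in VC200, and 6117 and 9858 CPM in VC600. For novel_27 the values were 5035 and 4123 CPM in VC20, 2930 and 2935 CPM in VC200, and 3718 and 2985 CPM in VC600. For novel_39 they were 2591 and 3502 CPM in VC20, 2290 and 2024 CPM in VC200, and 3735 and 3543 CPM in VC600. In each of these entries, as in novel_12, both VC200 trees were the lowest of the 6. The opposite order was seen in novel_41, with 1861 and 2535 CPM in VC20, 3005 and 2838 CPM in VC200, and 1744 and 1775 CPM in VC600. Here both VC200 trees were the highest.

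In novel_6, novel_40 and novel_64 the VC200 trees did not lie apart. The entry novel_6 ranged from 1158 to 2837 CPM and novel_40 from 1507 to 2711 CPM over the 6 libraries. The trees of 1 age lay far apart in novel_64, which had 503 and 1188 CPM in VC20, 1057 and 1588 CPM in VC200, and 534 and 1547 CPM in VC600. In all groups of this entry, tree B was the higher one. The entry novel_278 had 888 and 974 CPM in VC20, 723 and 572 CPM in VC200, and 1816 and 753 CPM in VC600, so that tree A of VC600 stood out and both VC200 trees were again the lowest.

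A ratio of means in the band did not always go with similar levels in individual trees. Comparing each oldest tree with each young tree gives 4 ratios per entry. All 4 lay in the band for 5 entries, 3 of 4 for 11 entries, 2 for 15, 1 for 6, and none for novel_296 and novel_416. Over the 4 VC20 and VC600 libraries, 18 entries stayed within 2-fold and 10 spread over more than 3-fold. The median ratio of the larger to the smaller tree was 1.32 in VC20, 1.197 in VC200 and 1.66 in VC600. Tree A exceeded tree B in VC600 for 26 of 39 entries.

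Among the 18 entries of at least 1000 reads in total, the coefficient of variation of CPM over these 4 libraries was smallest for novel_39 (15.3%), novel_12 (17.5%), novel_83 (17.5%), novel_41 (18.9%) and novel_81 (19.9%). For novel_81 the values were 339 and 436 CPM in VC20, 312 and 373 CPM in VC200, and 553 and 483 CPM in VC600. In novel_83 the trees of VC200 lay furthest apart, at 811 and 122 CPM, against 464 and 353 CPM in VC20 and 377 and 307 CPM in VC600. An entry can thus be even in the groups used for selection and uneven in the one that was not.

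The coefficient of variation was largest for novel_64 (54.3%), novel_91 (48.1%), novel_287 (47.8%), novel_278 (43.4%) and novel_107 (39.6%). For novel_91 the values were 342 and 516 CPM in VC20, 101 and 192 CPM in VC200, and 182 and 647 CPM in VC600. Its means of 415 CPM in VC600 and 429 CPM in VC20 are almost equal, but the oldest trees differed 3.55-fold. In novel_137 and novel_416, tree A of VC600 had 0 reads, which allows up to 1.83 CPM by counting error alone, while tree B had 57.6 and 27.0 CPM. These entries are in the band through 1 oldest tree only.

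At the lower edge of the band, the entries just inside were novel_142 (ratio of VC600 to VC20 0.693) and novel_155 (0.701), and those just outside were novel_413 (0.668) and novel_18 (0.665). At the upper edge, novel_249 (1.48) and novel_431 (1.47) lay inside, and novel_261 (1.505) and novel_181 (1.506) outside. Within the band, 21 entries had a ratio below 1 and 18 above 1, with a median of 0.967. The entries fill the band without a gap at its edges, and the median of all 227 predicted entries was 0.532.

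Which entries counted as steady depended on how the libraries were scaled. TMM scaling, which assumes that most entries do not differ between libraries, raises VC600 over VC20 by 0.52 in log2. Under TMM, 50 predicted entries lay in the band, of which 22 belonged to the 39, and the other 17 of the 39 had ratios above 1.5. With the total of known entries only as the base, 36 entries lay in the band and 2 of them belonged to the 39. Leaving out tree A or B of VC600 gave 35 and 36 entries, with 23 and 21 shared. Leaving out tree A or B of VC20 gave 43 and 42 entries, with 28 and 27 shared. The term steady therefore refers to a share of counted reads.

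**Figure D2:**
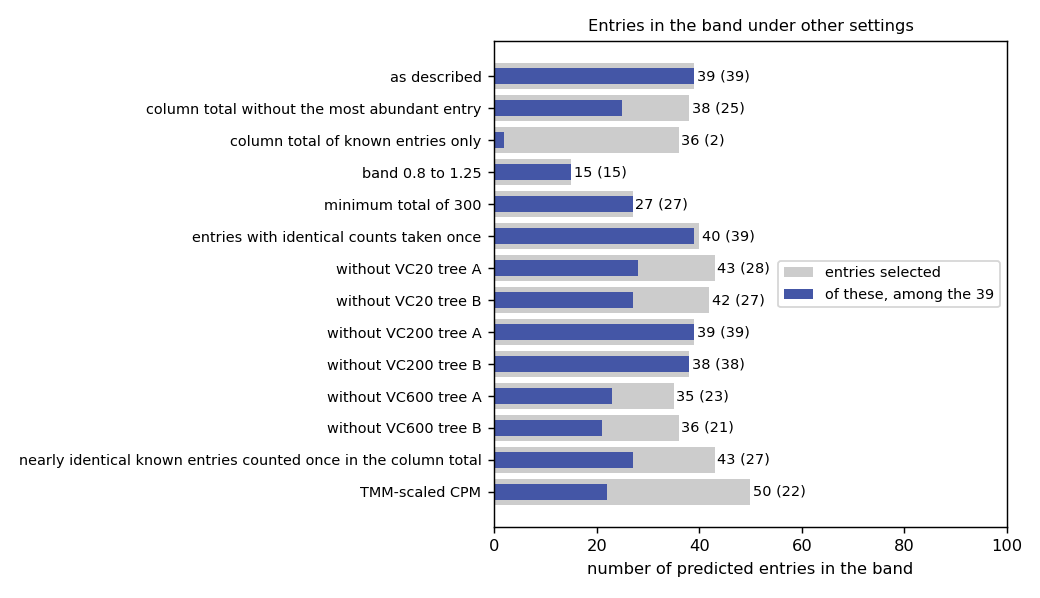
Number of predicted entries in the band under each way of scaling, limit or library left out (grey bars), and how many of them were among the 39 (blue bars). Each bar is labelled with both numbers, the second in parentheses. The number selected ranged from 15 to 50, and the overlap was smallest (2) when only known entries formed the total.

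The VC200 values entered the selection only through the total of 60 reads. The VC20 and VC600 libraries against which VC200 is set are those used for selection, and choosing entries alike in them also bears on how often VC200 can lie apart. In most entries VC200 lay below both other groups. The VC200 mean was the lowest of the 3 means for 24 entries, the highest for 8 and between the others for 7. The median ratio of the VC200 mean to the average of the VC20 and VC600 means was 0.819. Both VC200 libraries lay below all 4 other libraries for 11 of 39 entries (28.2%), against 13.7% of 357 tested entries, and above them for 3, against 9.24% of all tested entries. The 11 entries were novel_12, novel_22, novel_27, novel_39, novel_278, novel_107, novel_287, novel_79, novel_249, novel_404 and novel_383, and the 3 were novel_41, novel_137 and novel_169. These positions are in CPM. TMM scaling, which the edgeR calls below use, raises VC200 over VC20 by 0.33 in log2. Under TMM the VC200 vs VC20 difference was -0.06 in log2 for novel_22 and -1.66 for novel_107. Whether both VC200 libraries lie lowest thus depends on the scaling for some entries, such as novel_22. In CPM, predicted entries that were higher in VC600 than the band had VC200 below in 34.5% of 55, and those lower than the band in 3.76% of 133. The share thus moved with the ratio used for selection, and nothing particular to the 39 is read from it.

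**Figure D3:**
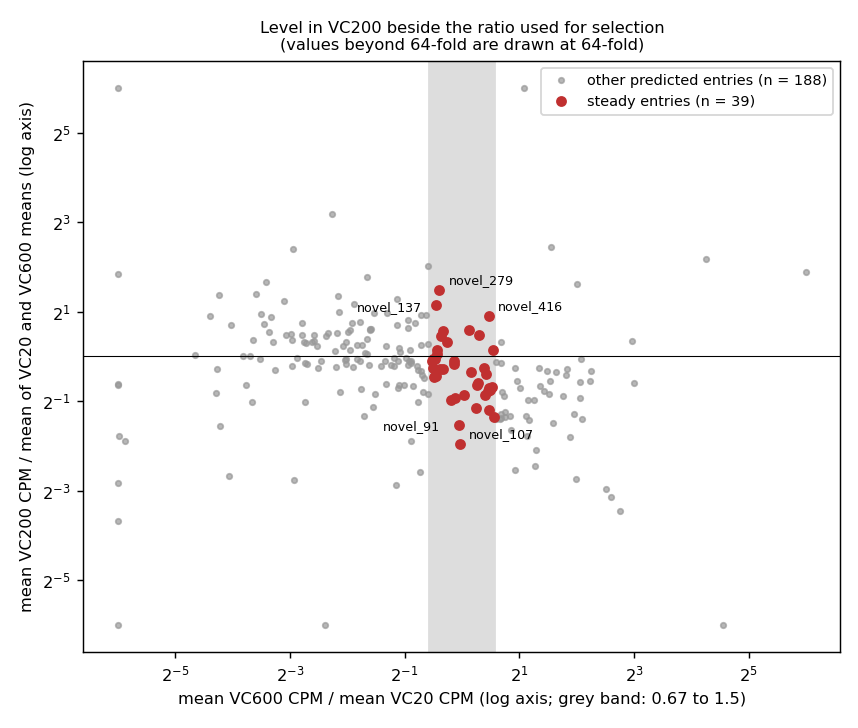
Each point is 1 of 227 predicted entries of at least 60 reads. The horizontal axis gives the ratio of VC600 to VC20 means used for selection (grey band, 0.67 to 1.5), and the vertical axis the ratio of the VC200 mean to the average of the VC20 and VC600 means, both on log axes. The 39 selected entries are red. Their median on the vertical axis was 0.819, with novel_107 the lowest (0.262) and novel_279 the highest (2.81).

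The lowest ratio of VC200 to the other groups was that of novel_107. It had 163 and 89.6 CPM in VC200, against 707 and 282 CPM in VC20 and 585 and 379 CPM in VC600. The entry novel_79 had 145 and 142 CPM in VC200, against 327 and 223 CPM in VC20 and 482 and 286 CPM in VC600. Values for novel_249 were 32.1 and 21.2 CPM in VC200, against 60.8 and 49.2 CPM in VC20 and 109 and 54.1 CPM in VC600. In these 3 entries both VC200 trees were the lowest, and the spread within VC20 and VC600 was up to 2.51-fold. In the opposite direction, novel_279 had 202 and 70.0 CPM in VC200, against 71.6 and 38.1 CPM in VC20 and 31.1 and 52.6 CPM in VC600. Only tree A of VC200 was clearly high, and tree B fell within the range of the young trees.

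**Figure D4:**
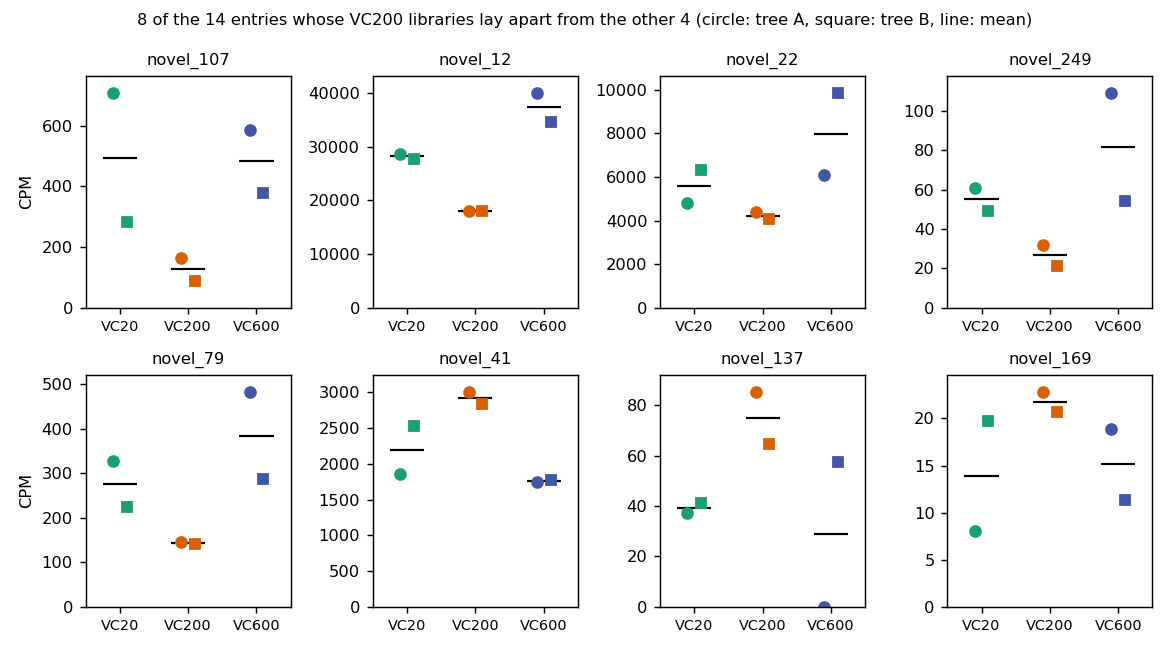
CPM by tree for 8 of the 14 entries whose VC200 libraries lay apart from the other 4 in CPM, with a linear axis from 0 in each panel. Circles are trees A, squares are trees B and lines are means of 2 trees. In novel_107, novel_12, novel_22, novel_249 and novel_79 both VC200 trees were lowest, and in novel_41, novel_137 and novel_169 both were highest.

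Set against the average of VC20 and VC600, no entry of the 39 was called in VC200, where a call needed an adjusted p under 0.05 and a log2 fold change over 1 in edgeR's quasi-likelihood test with Benjamini-Hochberg adjustment over 357 entries. Among all tested entries 5.04% were called higher and 2.80% lower. At an unadjusted p under 0.05 there were 7 of the 39 (17.9%), against 33.9% of all tested entries. DESeq2 called 3, all lower (novel_107, novel_79 and novel_249), against 15.0% of all entries it tested in either direction. The median log2 difference of the 39 was -0.23, against 0.11 over all tested entries. The selection on VC600 and VC20 bears on this contrast too, and nothing particular to the 39 is read from it.

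The 7 entries at an unadjusted p under 0.05 were novel_12, novel_107, novel_91, novel_79 and novel_249, lower in VC200, and novel_41 and novel_279, higher. The difference was -0.78 ± 0.17 (SE) in log2 for novel_12, with an edgeR adjusted p of 0.0367, which passed the p threshold but not the fold change. It was -1.88 ± 0.53 for novel_107 (edgeR adjusted p = 0.0686), -1.25 ± 0.43 for novel_249 (0.095) and -1.10 ± 0.39 for novel_79 (0.0975). It was 1.55 ± 0.54 for novel_279 (0.0975). Without tree B of VC600, novel_137 and novel_416 were called higher in VC200, both of which are listed at 0 in tree A of VC600. VC600 is then this 1 library, whose spread is assumed to be that of the other groups, so that these calls rest on 1 value of 0.

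Of the pairwise comparisons, VC200 vs VC20 gave no call among the 39, with edgeR and with DESeq2, and 3 entries at an unadjusted p under 0.05. Over all tested entries 2.80% were called higher and 5.32% lower, and 19.3% had an unadjusted p under 0.05. The lowest edgeR adjusted p among the 39 was 0.157, for novel_107, at -1.66 in log2. The median difference of the 39 was -0.06, and -0.40 with column totals only.

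In VC600 vs VC200, 5 of the 39 were called higher by edgeR and none lower, against 16.2% higher and 24.1% lower of all tested entries. This comparison shares its VC600 libraries with the selection and its VC200 libraries with the comparisons above. The log2 difference was 2.10 ± 0.58 (SE) for novel_107 (edgeR adjusted p = 0.0245), 1.77 ± 0.48 for novel_249 (0.0242), 1.59 ± 0.44 for novel_79 (0.0242), 1.24 ± 0.19 for novel_12 (0.00437) and 1.15 ± 0.36 for novel_22 (0.0354). All 5 are among the entries whose VC200 libraries were the lowest in CPM. Under TMM, VC200 vs VC20 and VC600 vs VC20 were -0.06 and 1.09 in log2 for novel_22, and -0.31 and 0.92 for novel_12. They were -0.73 and 1.05 for novel_249, -0.62 and 0.97 for novel_79, and -1.66 and 0.45 for novel_107. Except in novel_107, VC600 thus lay further from VC20 than VC200 did. The VC600 vs VC20 values are given without a test, since the selection used these groups. The median of the 39 was 0.36, against -0.27 over all tested entries, and 0.19 with column totals only. The selection left out predicted entries lower in VC600 than the band. A higher median and fewer lower calls than over all entries follow in part from this, and nothing particular to the 39 is read from them. Where a tree of VC200 or VC600 is left out, that group is 1 library whose spread is assumed to be that of the other groups. Without tree A or B of VC200, novel_12 was the only one of the 5 still called. Without tree A of VC600, novel_12 and novel_22 were still called, and without tree B of VC600, novel_12, novel_249 and novel_79, while novel_137 and novel_416 were then called lower. Without tree A or B of VC20, novel_22 lost its call and the other 4 kept theirs.

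Target genes had been predicted for 35 of the 39 entries, 194 genes in all, with a median of 3 genes per entry. No target was listed for novel_6, novel_278, novel_137 and novel_431. Most targets were listed for novel_279 (38), novel_416 (21), novel_142 (16), novel_107 (14) and novel_383 (13). A best Swiss-Prot match was at hand for 100 of the 194 genes. Of these 100, 13 matched transcription factors, 8 kinases, 8 disease resistance proteins or LRR receptors, 7 pentatricopeptide repeat proteins, which act on organelle RNA, and 7 transporters. For other predicted entries, of 765 target genes with a match, 4.97% were transcription factors, 9.67% kinases, 9.80% resistance proteins or LRR receptors, 15.3% pentatricopeptide repeat proteins and 3.53% transporters. The keywords for transcription factors were widened from those first set by squamosa and response regulator. These words match targets of novel_107, novel_142 and novel_477. Those for transporters were widened by tolerance protein and channel. The higher shares of transcription factors and transporters may depend in part on this choice, and no test was made of any of these shares.

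Some steady entries shared their predicted targets with old miRNA families. In total 40 of the 194 genes were also listed for a known entry. The same share was not counted for targets of other predicted entries. Nothing particular to the steady entries is therefore read from it. Among the steady entries, novel_142 and novel_107 came first by number of shared genes, and they had 6 target genes in common. Of the 16 targets of novel_142, 11 were also listed for miR529 (57.9% of the 19 genes of that family) and 10 for miR156, a family that in Arabidopsis delays the change from juvenile to adult growth by acting on SPL (SQUAMOSA promoter-binding-like) transcription factors. Of the 14 targets of novel_107, 7 were listed for miR156. The genes shared with miR156 were 10.2% and 7.14% of the 98 genes listed for miR156. The most abundant known miR156 entry had 891 and 811 CPM in VC20, 1094 and 1095 CPM in VC200, and 4482 and 2138 CPM in VC600, and was highest in both oldest trees.

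The SPL genes listed for novel_107 and novel_142 differed in level. *Gb_23724*, which matches SPL3 (scaffold3961, 257223 to 262726, minus strand in the deposited table), had 18.7, 20.6 and 20.0 FPKM in VC20, 18, 18.5 and 40.2 FPKM in VC200, and 14.8, 23.3 and 17.8 FPKM in VC600. *Gb_27198*, which matches SPL12 (scaffold4721, 264884 to 271959, plus strand), had 15.9, 20.1 and 14.4 FPKM in VC20, 16.7, 15.7 and 11 FPKM in VC200, and 16.6, 19.8 and 23.0 FPKM in VC600. Trees A and B of VC200, in which novel_107 was lowest, lay within the range of the young trees in *Gb_27198* and just below it in *Gb_23724*, and within the range of the oldest trees in *Gb_23724*. *Gb_02576* and *Gb_26599*, also SPL-like, were listed at 0 in all 9 libraries.

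The 3 targets of novel_81 were all listed for miR164 too, a family that acts on NAC transcription factors. The one of highest level, *Gb_13930*, matches NAC100 (scaffold2170, 1304262 to 1306025, minus strand). It had 5.01, 3.73 and 6.40 FPKM in VC20, 5.14, 6.86 and 102 FPKM in VC200, and 18.7, 8.6 and 5.11 FPKM in VC600. Tree C of VC200, the library that was lowest in the cambium markers, was by far the highest, followed by tree A of VC600. The entry novel_169 shared *Gb_02083*, an HD-ZIP III gene of the kind that specifies vascular and adaxial identity, with miR166 and miR165. This gene (scaffold10919, 519363 to 525014, plus strand) had 38.0, 60.3 and 26.5 FPKM in VC20, 20.7, 46.0 and 5.67 FPKM in VC200, and 46.4, 20.9 and 61.3 FPKM in VC600, so that the groups overlapped. With 16.9 CPM on average, novel_169 was far below the most abundant known miR166 entry, which had at least 56335 CPM in each library.

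Targets listed for miR169 recurred in novel_27 (2 of 5), novel_83 (3 of 5), novel_79 (2 of 6), novel_249 (1 of 1) and novel_91 (1 of 1). The miR169 family is best known for acting on NF-YA transcription factors. Among these targets, *Gb_26928* of novel_83 matches TOPLESS, a co-repressor in auxin and other signalling. It had 36.6, 34.5 and 33.2 FPKM in VC20, 40.4, 38.8 and 17.3 FPKM in VC200, and 18.9, 33.9 and 24.4 FPKM in VC600. The target of novel_249, *Gb_13242*, matches an ABC transporter, and averaged 6.38 ± 1.96 FPKM in VC200, against 4.76 ± 0.36 FPKM in VC20 and 4.25 ± 0.95 FPKM in VC600 (SD, n = 3 trees). The target of novel_91, *Gb_02392*, matches a gamma-tubulin complex component, which helps to nucleate microtubules, and had 6.10 to 10.2 FPKM in the 9 libraries.

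The 2 most abundant entries, novel_12 and novel_477, had 5 and 4 predicted targets. For novel_12, the targets of highest level were *Gb_35708*, which matches a type 2C protein phosphatase, and *Gb_22514*, which matches an LRR receptor kinase. *Gb_35708* had 24.7, 19.6 and 22.0 FPKM in VC20, 34.1, 37.4 and 22.0 FPKM in VC200, and 21.0, 35.1 and 21.1 FPKM in VC600. Trees A and B of VC200 and tree B of VC600 were the highest in this gene. Its difference of VC200 from the average of VC20 and VC600 was 0.36 ± 0.22 (SE) in log2 (limma adjusted p = 0.418). Levels of miRNAs and of their targets were not tested against each other for any entry. *Gb_22514* ranged from 7.38 to 16.3 FPKM over the 9 libraries.

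For novel_477, 3 of 4 targets were also listed for miR1083. Of these, *Gb_10394* and *Gb_27043* match ARR2 and ARR1, response regulators that switch on genes downstream of cytokinin, a hormone needed for cambial division. *Gb_10394* (scaffold17594, 633250 to 636956, minus strand) had 71.2, 55.0 and 72.7 FPKM in VC20, 57.2, 56.0 and 83.5 FPKM in VC200, and 88.0, 83.0 and 54.3 FPKM in VC600. *Gb_27043* had 4.62 FPKM in tree C of VC200 and 0.361 to 1.29 FPKM in the other 8 libraries. Neither gene separated the age groups. A cytokinin receptor homolog, *Gb_13091* (Histidine kinase 4), was a target of novel_142, and had 2.036 FPKM in tree C of VC200 and 8.11 to 14 FPKM in the other 8 libraries.

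**Figure D5:**
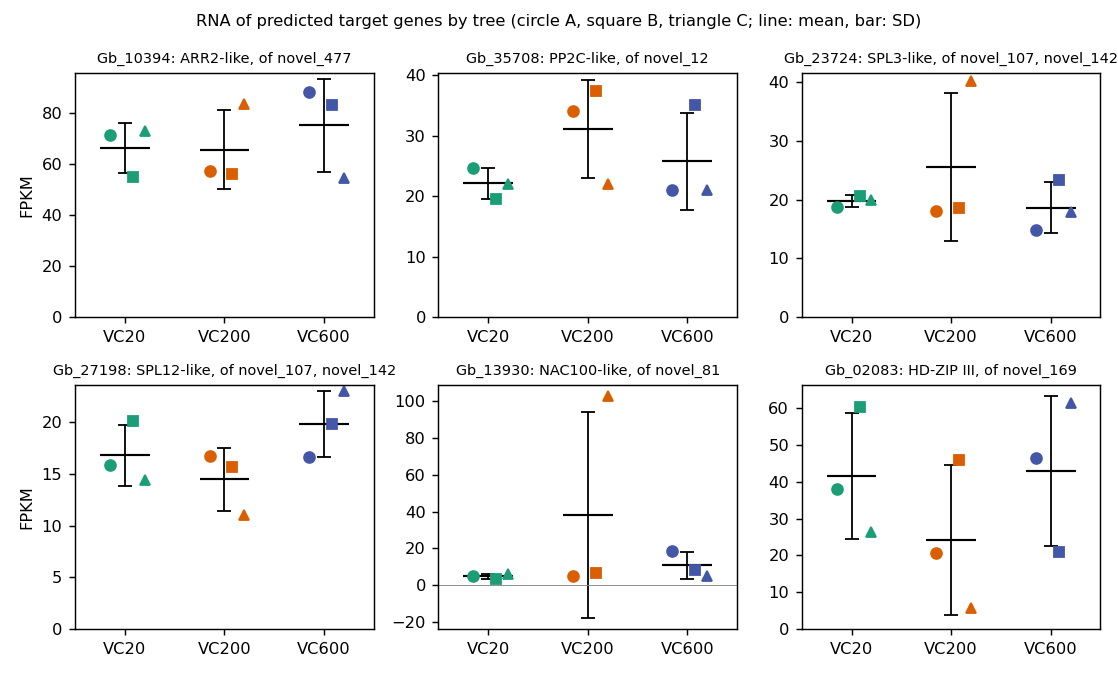
FPKM of 6 predicted target genes by tree (circles A, squares B, triangles C), with the mean of 3 trees (line) and its SD (bar), on linear axes that include 0. The age groups overlapped in all 6 genes. In *Gb_13930* and *Gb_23724* tree C of VC200 was the highest, at 102 and 40.2 FPKM.

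The following predicted targets are given for their annotation, and some were chosen after their values were seen. Both novel_126 and novel_140 had the separase-like genes *Gb_00964* and *Gb_02123*, proteases that release sister chromatids, among their targets, at 2.82 and 2.01 FPKM on average. A DDM1-like chromatin remodeller, *Gb_06567*, was a target of novel_169 and averaged 30.2 FPKM. The target of novel_22, *Gb_15284*, matches a phosphatase of the RNA polymerase II tail and had 7.04 to 13.8 FPKM. The target *Gb_27365* of novel_40 matches the CCR4 homolog 2, a deadenylase, and averaged 15.6 FPKM.

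The predicted target of highest level was *Gb_05468*, which is listed for novel_279 and matches UBC7, an enzyme that conjugates ubiquitin to proteins marked for breakdown. It had 299, 249 and 259 FPKM in VC20, 349, 310 and 469 FPKM in VC200, and 400, 343 and 348 FPKM in VC600. All young trees were below all older trees, and the difference between VC600 and VC20 was 0.43 in log2 (limma adjusted p = 0.730). How many other genes had this order was not counted. *Gb_05521*, a glucanase-like gene and also a target of novel_279, ranged from 25.7 to 42.4 FPKM. For novel_383, *Gb_03517*, which matches a kinesin motor, had 3.08 to 12.1 FPKM. For novel_416, *Gb_01692*, which matches the pollen protein SF21, had 8.39, 7.65 and 9.38 FPKM in VC20, 4.36, 3.70 and 4.29 FPKM in VC200, and 4.78, 5.76 and 7.22 FPKM in VC600. Its VC200 trees were the lowest, and its difference from the average of VC20 and VC600 was -0.65 ± 0.17 (SE) in log2(FPKM + 1), with a limma adjusted p of 0.108. The 3 cytochrome P450-like targets of novel_41 were at or near 0.

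In the RNA-seq libraries, 99 of the 194 target genes (51.0%) had at least 1 FPKM in at least 3 libraries and were tested, against 49.9% of all genes in the table, and 51 of the 194 were listed at 0 throughout. In VC200 against the average of VC20 and VC600, none of the 99 was called by limma on log2(FPKM + 1), at an adjusted p under 0.05 and a log2 fold change of at least 1. Of 21924 genes tested, 0.123% were called. At an unadjusted p under 0.05 there were 15 of the 99, against 18.1% of all genes, and edgeR on fragments recovered from FPKM also called 0. The median difference of the 99 was -0.10, against -0.11 for all genes. The smallest adjusted p was 0.0864, for *Gb_14334*, a Scarecrow-like gene and target of novel_279. It had 0.206, 0.237 and 0.0239 FPKM in VC200, against 1.37, 2.53 and 1.22 FPKM in VC20 and 1.34, 0.739 and 2.5 FPKM in VC600, and all VC200 trees were lower than the others. All VC200 trees lay above or below all others in 5 of the 99 genes. Among the 1487 tested targets of all miRNA entries, which include the 99, there were 121 such genes. The share over all 21924 tested genes was not counted, and nothing particular to the 99 is read from this count. Without tree C of VC200, there were likewise 0 calls.

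In VC600 vs VC20, none of the 99 target genes was called by limma, and 6 had an unadjusted p under 0.05. Over all 21924 genes, 0.00912% were called and 6.78% had an unadjusted p under 0.05. With edgeR on recovered fragments there were 0 calls. The median difference was -0.06, against -0.02 for all genes, and the smallest adjusted p was 0.694.

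Of genes for making and using small RNAs, 3 could be identified by name through the annotation at hand, and 2 of them passed the filter. None was a target of a steady entry and none of the 2 was called in either comparison by limma. *Gb_08306*, which matches RNA-dependent RNA polymerase 6, had 9.16, 9.12 and 7.18 FPKM in VC20, 18.2, 10.02 and 14.7 FPKM in VC200, and 9.69, 10.6 and 11.9 FPKM in VC600. The VC200 trees overlapped with VC600, and the difference from the average of the other groups was 0.51 in log2 (limma adjusted p = 0.230). *Gb_13708*, which matches Argonaute 7, averaged 33.7 ± 35.1 FPKM in VC200, against 18.4 ± 4.2 FPKM in VC20 and 14.5 ± 2.8 FPKM in VC600 (SD, n = 3), and its high value was again in tree C of VC200.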

How the data were processed

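The authors assigned small RNA reads of 18 to 30 nt to miRBase 20.0 entries and to entries predicted with miRDeep2 and miREvo, and deposited raw read counts per entry. They also deposited target pairs predicted with psRobot and TargetFinder. For RNA-seq, FPKM values per gene were deposited by the authors. The methods name HISAT as aligner, while the submitters' processing notes name TopHat2 2.0.12 and Cufflinks 2.1.1. A degradome library was not used here, nor were the sequences of predicted entries.

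Counts of all entries were fitted with edgeR 4.0.16 (filterByExpr, TMM, quasi-likelihood test) in R 4.3.3 over 6 libraries, with DESeq2 1.42.0 as an alternative. For genes, limma 3.58.1 (lmFit, eBayes with trend) was fitted to log2(FPKM + 1) over 9 libraries, for genes that reached 1 FPKM or more in 3 or more libraries. Since FPKM times length was whole within 0.02 for 97.4% of values, fragments were also recovered for 43157 genes (15732412 to 18811771 per library by this scale). Tables used Python 3.11.15, pandas 2.3.3 and numpy 2.4.6, and figures matplotlib 3.10.9. The edgeR fit of entries and the limma fit of genes were tried on simulated data for VC200 against the average of VC20 and VC600. The other comparisons, DESeq2 and edgeR on recovered fragments were not. P values set a difference against the spread between single trees within groups, estimated jointly over the groups and moderated across entries or genes. The limit for 0 reads (3 reads) covers counting error only. Coordinates are those of the deposited gene table.

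The members and lists were chosen with earlier results of these data known. Named entries were the 10 of highest mean CPM, those at the band edges, the 5 of smallest and 5 of largest variation among entries of at least 1000 reads, the 5 with most targets, and called entries. Up to 2 annotated targets of highest FPKM were named for an entry. Entries with VC200 libraries apart, entries and genes of low unadjusted p, and targets shared between entries or with known families were named after their values were seen. Gene names are best Swiss-Prot matches in the paper's list of predicted targets, of which part was at hand (133 of the 194 target genes), since the deposited gene table holds none. The pathway list and target groups rest on this list. One predicted target gene that the rule would name is not reported here.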

Additional observations from a re-analysis of the deposited data

How the results depend on the processing

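The count of 39 entries became 15 with the narrower band, and 35 to 43 with 1 library left out. In VC200 against the average of VC20 and VC600, the count of called entries (0) became 3 with no filter on low counts, 3 with DESeq2 and 1 with no minimum fold change, and ranged from 0 to 2 with 1 library left out (2 without tree B of VC600). In VC200 vs VC20 it became 1 with no filter, and stayed 0 with each library left out. In VC600 vs VC200 the count (5) became 8 with RLE scaling, 9 with no filter and 9 with DESeq2, and ranged from 1 to 7 with 1 library left out, where the 7 include 2 called lower. Over all entries, VC200 against the average gave 28 calls, 79 with no filter, 57 with DESeq2 (380 tested) and 29 with no minimum fold change. VC200 vs VC20 gave 29, and 54 with no filter. VC600 vs VC200 gave 144, with 148 for RLE scaling, 179 for no filter and 153 for DESeq2 (450 tested). Changes in the counts are therefore not read as particular to the 39. With the tree letters as a replicate block, the 3 comparisons gave 0, 0 and 4 calls, against 18, 10 and 113 over all entries. Target genes then gave 0 and 0. Trees of the same letter did not deviate together (correlations of -0.03, -0.07 and -0.11 over 357 entries), and the main fits did not treat the letters as pairs. Whether trees of a letter share a batch or a sampling year was not tested. The alternatives refit the same counts from which the 7 entries at an unadjusted p under 0.05 were picked. A kept direction is therefore no independent support. These 7 entries kept their direction under each of 13 alternatives. For them the log2 differences ranged from -2.37 to -1.44 for novel_107, from -0.85 to -0.74 for novel_12 and from 0.60 to 2.13 for novel_279. The count of called target genes was 0 under all alternatives run. Groups of 2 small RNA libraries limit these results, and 20 of the 39 entries had under 100 CPM. TMM moved log2 differences, relative to column totals, by 0.07 in VC200 against the average, 0.33 in VC200 vs VC20 and 0.19 in VC600 vs VC200. Quantile normalization moved the median of all genes in VC200 against the average to 0.00. Counting nearly identical known entries once in the column totals, an alternative chosen after seeing the data, put 43 entries in the band, 27 of them among the 39. The edgeR fit on recovered fragments was also chosen after seeing the data.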
